A study of Mus musculus with 4 samples.

Results

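Autophagy delivers cytoplasm and worn organelles to the lysosome inside a double-membraned vesicle, the autophagosome. A kinase complex around ULK1 starts the process, a lipid kinase complex around Beclin 1 marks the membrane, and a pair of ubiquitin-like conjugation systems then attaches the ATG8 proteins (the LC3 and GABARAP families) to it. Receptors tether cargo to the ATG8 proteins, and the closed vesicle fuses with a lysosome. Neurons do not divide and so cannot dilute damaged material, and they rely on this route to clear axons and synapses. In other cell types p53 is known to raise transcription of several autophagy genes.

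The 44 genes described here were chosen by symbol for their known roles in these steps, out of 18854 genes measured. All 44 were found and all 44 passed the filter on low values (at least 1 CPM in at least 2 libraries). CPM is the read count of a gene scaled to the same total of counted reads in every library. They were measured by RNA sequencing of wild-type mouse cortical neurons that had been in culture for 15 days. One group of 2 libraries received Nutlin-3, a small molecule that frees p53 from its inhibitor Mdm2, for 2 days (the p53 activator group), and the other 2 libraries received the solvent DMSO. The titles name DMSO where the treatment tag of those samples says that none was given, and the titles were followed. Nothing in the labels ties the libraries within a group to separate cultures, so the p-values cover only library-to-library spread, which may be technical.

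The libraries rested on 14584247 to 19065197 counted reads, and 41 of the 44 genes had more than 100 reads in every library. The exceptions were Atg101, Atg10 and Atg4a, the last with as few as 50. The makeup of the libraries moved with the treatment: reads of nuclear protein-coding genes made up 73.4% and 75.8% with DMSO and 83.0% and 82.6% with the activator. Neuron markers were present in all libraries, and 6 of 8 were called higher and Rbfox3 lower. Summed over the list they stood at 6420 and 7194 CPM with DMSO, against 7397 and 7527 CPM with the activator. The 8 astrocyte markers summed to 2384 and 2345 CPM against 2735 and 2701 CPM, with 1 of 8 called. The 6 oligodendrocyte lineage markers measured summed to 165 to 190 CPM, the 3 microglial ones to 2.88 to 4.53 CPM and the 2 endothelial and mural ones to 4.34 to 6.79 CPM, with no marker at 0 in all libraries. Mog, Mag, Cx3cr1, Tmem119, C1qa, C1qb, Itgam, Cldn5, Pecam1 and Flt1 were looked for and not listed among the measured genes. The part of these shifts in the autophagy values was not tested, and in bulk RNA fewer cells of a type and less RNA per cell cannot be told apart.

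With the p53 activator the autophagy genes were mostly higher than with DMSO. Of the 44 genes, 18 rose, 1 fell and 25 did not pass the test (limma on log2(CPM + 1), Benjamini-Hochberg adjusted p under 0.05 over 16654 genes). Across all genes tested, 16.9% were called higher and 16.3% lower, and across nuclear protein-coding genes 21.2% and 7.19%, beside 40.9% and 2.27% of the autophagy genes. The rises were small. The largest was that of the mitophagy receptor Bnip3, 1.45-fold in mean CPM, and the only fall was that of the conjugating enzyme Atg3, to 0.766 of its DMSO mean. The median log2 fold change of the 44 genes was 0.20, beside 0.09 for nuclear protein-coding genes and 0.03 for all genes tested.

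**Figure D1:**
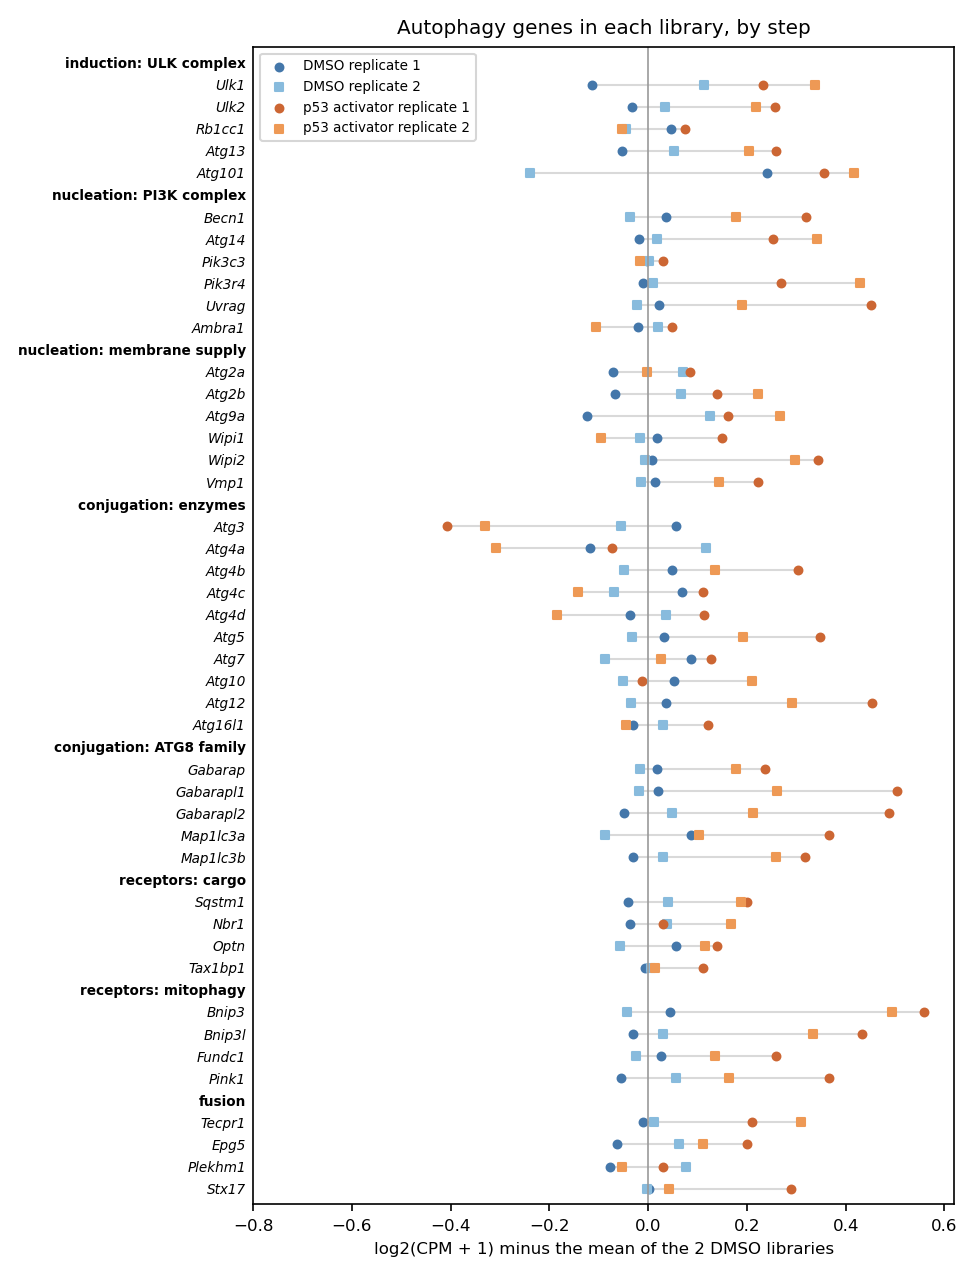
Level of each autophagy gene in each library as log2(CPM + 1) minus the mean of the 2 DMSO libraries (horizontal axis), with genes grouped by step. For 30 of the 44 genes both p53 activator libraries (orange) lie above both DMSO libraries (blue), and for Atg3 both lie below.

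In 30 of the 44 genes both activator libraries lay above both DMSO libraries, in 1 both lay below, and in 13 the groups overlapped. Among nuclear protein-coding genes the groups were separated upward in 45.2% and downward in 19.8%, and among all genes in 36.6% and 30.9%. The 44 genes together took 2384 and 2421 CPM with DMSO and 2838 and 2685 CPM with the activator. As a share of the reads of nuclear protein-coding genes this was 0.325% and 0.319% against 0.342% and 0.325%, so the groups were close on that scale. On the protein-coding scale, where each of these genes is divided by their total, 4 autophagy genes rose (Bnip3, Bnip3l, Gabarapl1 and Atg12) and Atg3 fell, beside 4.37% of protein-coding genes called higher and 13.1% lower. That scaling moved the median of protein-coding genes by -0.14, and the median of the autophagy genes lay above it by 0.10, compared with 0.11 on deposited CPM, 0.04 after cyclic loess and 0.03 after quantile normalization. With limma's trend of the spread switched off, Bnip3 was the only autophagy gene called, beside 1.81% of all genes called higher and 11.8% lower, and with edgeR's TMM scaling and quasi-likelihood test 10 rose and 1 fell, beside 10.7% and 17.4%. Leaving out a library lowered the calls among all genes too. Without DMSO replicate 1 the test called 7 rises and 0 falls (6.83% and 8.68% of all genes), and without DMSO replicate 2 it called 12 and 1 (12.7% and 13.8%). Without activator replicate 1 there were 10 and 1 (9.98% and 14.8%), and without activator replicate 2 there were 14 and 1 (11.6% and 10.7%). Cyclic loess gave 3 rises and 1 fall (5.03% and 9.79% of protein-coding genes), DESeq2 5 and 1 (6.94% and 9.52% of all genes), and quantile normalization 9 and 1 (9.8% and 11.6%).

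**Figure D2:**
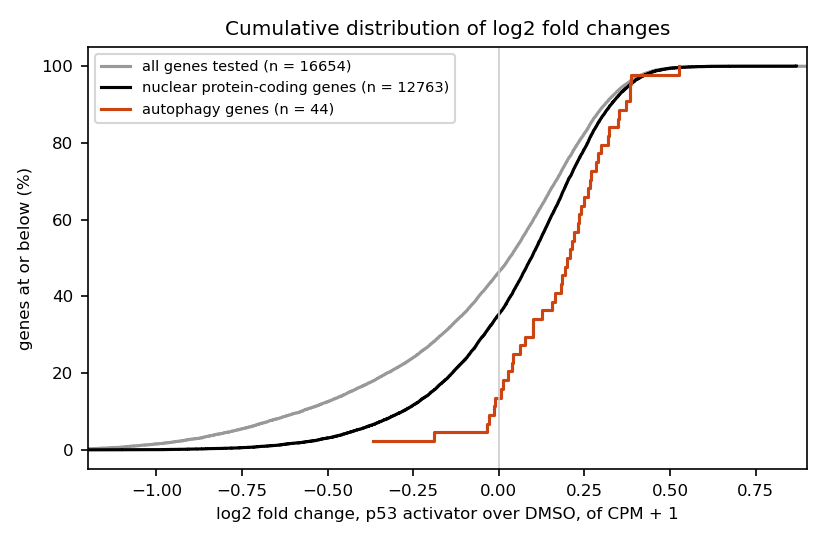
Share of genes (vertical axis, percent) at or below a given log2 fold change of CPM + 1 (horizontal axis), for the 44 autophagy genes, nuclear protein-coding genes and all genes tested. The autophagy curve crosses its midpoint at 0.20, to the right of protein-coding genes (0.09) and of all genes (0.03).

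The promoters of the genes at both ends of the range are shown because both hold the E-box CACGTG, a palindrome that basic helix-loop-helix factors bind. TFEB, the regulator of lysosome and autophagy genes, prefers an extended form of it, TCACGTGA. The sequences are RefSeq's, build GRCm38.p6, and cover the 250 bases before the annotated start, 5′ to 3′ on the strand of the gene, with each CACGTG in capitals. The Bnip3 window is chr7:138909507-138909756 on the minus strand and the Atg3 window is chr16:45158579-45158828 on the plus strand.
Bnip3: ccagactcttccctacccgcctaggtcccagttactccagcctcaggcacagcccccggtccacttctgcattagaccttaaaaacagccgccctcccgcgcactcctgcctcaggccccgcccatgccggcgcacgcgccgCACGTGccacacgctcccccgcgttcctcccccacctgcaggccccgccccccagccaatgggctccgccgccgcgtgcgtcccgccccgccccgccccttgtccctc
Atg3: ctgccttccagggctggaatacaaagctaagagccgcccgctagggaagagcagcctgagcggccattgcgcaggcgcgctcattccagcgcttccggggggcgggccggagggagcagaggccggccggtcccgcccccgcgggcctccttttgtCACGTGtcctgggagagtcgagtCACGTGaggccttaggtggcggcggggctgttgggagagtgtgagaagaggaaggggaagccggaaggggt
The Bnip3 match began 108 bases before the start and the 2 Atg3 matches 94 and 71 bases before it, the nearer of them within a full TCACGTGA.

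RefSeq promoters (250 bases before to 50 after the start) were matched for 36 of the 44 genes, with 42 promoters in all. Rb1cc1, Becn1, Pik3c3, Atg12, Atg16l1, Map1lc3a, Bnip3l and Epg5 had no entry. Searched on both strands, CACGTG was found in 5 of the 36 genes (Atg3, Atg5, Atg7, Atg14 and Bnip3), or 13.9%, beside 10.8% of all genes tested that have a promoter in the table. Of the 14 called-higher genes with a promoter, Bnip3 was the only one with the E-box. TCACGTGA, which contains CACGTG, was found in Atg3 alone (2.78% of genes, beside 1.93%). The consensus of a p53 half-site was matched in 2 genes, Atg4a and Vmp1 (5.56%, beside 8.61%), neither of which was called. A match in this window is a description of its letters.

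Of the 5 genes of the ULK complex, which induces autophagy, 2 rose and 0 fell (40% higher, beside 21.2% of nuclear protein-coding genes). Both that rose encode kinases. Ulk1, a kinase that starts autophagosome formation, stood at 42.6 and 50.04 CPM with DMSO, against 54.4 and 58.6 CPM with the activator (log2 fold change 0.28 ± 0.09 SE, limma adjusted p = 0.00893). The related kinase Ulk2 stood at 149 and 156 CPM against 182 and 178 CPM (0.24 ± 0.08, adjusted p = 0.0111). Both rose, with no overlap between groups. Rb1cc1, which encodes FIP200, the scaffold that holds the complex together, stood at 165 and 155 CPM against 168 and 154 CPM, so its groups overlapped (0.01, adjusted p = 0.928). The adaptors Atg13 and Atg101 had log2 fold changes of 0.23 and 0.39 without passing the test (adjusted p = 0.0512 and 0.0595), and Atg101 rested on 76 to 156 reads. Per kilobase of annotated exon, Ulk2 was the most abundant member with DMSO at 25.5 CPM, followed by Rb1cc1 at 10.9, Atg13 at 7.53, Ulk1 at 7.14 and Atg101 at 3.93. The call of Ulk1 was lost without DMSO replicate 1 (0.17) or activator replicate 2 (0.23), and that of Ulk2 without DMSO replicate 1 (0.21) or activator replicate 1 (0.22).

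In nucleation of the membrane 5 of 12 genes rose and 0 fell (41.7% higher, beside 21.2% of nuclear protein-coding genes). Of the 5, 3 belong to the 6 genes of the Beclin 1 lipid kinase complex and its regulators. Pik3r4, the regulatory subunit VPS15, stood at 26.3 and 26.7 CPM with DMSO, against 32.1 and 36.1 CPM with the activator (log2 fold change 0.35 ± 0.10 SE, limma adjusted p = 0.00449). Uvrag, which joins Beclin 1 in endosome and autophagosome maturation, stood at 23.9 and 23.1 CPM against 32.5 and 26.9 CPM (0.32 ± 0.11, adjusted p = 0.0136). Becn1, which encodes Beclin 1 itself, stood at 41.7 and 39.6 CPM against 51.0 and 46.1 CPM (0.25 ± 0.09, adjusted p = 0.0259). In each of these the groups were apart, and for Uvrag the activator libraries also lay apart from each other. Pik3c3, the catalytic lipid kinase VPS34, stood at 30.7 and 30.8 CPM against 31.4 and 30.4 CPM (0.01 ± 0.10, adjusted p = 0.963), with a 95% interval from -0.19 to 0.20. Ambra1, which links Beclin 1 to the ULK complex, had a log2 fold change of -0.03 and Atg14, the autophagy-specific subunit, one of 0.30 (adjusted p = 0.815 and 0.0750).

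The annotation places Cntd1 on the opposite strand over exons of Becn1, with 43.9% of the exonic bases of Becn1 shared. Cntd1 stood at 0.790 to 1.44 CPM. The use of strand in counting is not given, and what the overlap did to the Becn1 values was not tested. Of the exonic bases of Uvrag, 17.6% are shared with an antisense gene that was not listed among the measured genes. The call of Pik3r4 was lost without DMSO replicate 1 (log2 fold change 0.34) or activator replicate 2 (0.27). Those of Uvrag and Becn1 were lost without DMSO replicate 1 (0.34 and 0.29), DMSO replicate 2 (0.30 and 0.21) or activator replicate 1 (0.19 and 0.18).

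Of the 6 genes that bring membrane and read its lipid mark, 2 rose (33.3%, beside 21.2% of nuclear protein-coding genes). Wipi2, which binds the lipid made by VPS34 and recruits ATG16L1, stood at 79.0 and 78.2 CPM with DMSO, against 99.97 and 96.9 CPM with the activator (log2 fold change 0.32 ± 0.08 SE, limma adjusted p = 0.000994). Its groups were far apart relative to their spread, and it stayed called without any 1 of the 4 libraries. Atg9a, a lipid scramblase carried on vesicles that seed the membrane, stood at 70.5 and 84.0 CPM against 86.2 and 92.7 CPM (0.21 ± 0.08, adjusted p = 0.0360). Its DMSO libraries differed by more than the gap between the groups, and its call was lost without DMSO replicate 1 (0.09) or activator replicate 2 (0.16). Of its exonic bases 32.6% are shared with other annotated genes. The lipid transfer genes Atg2a and Atg2b had log2 fold changes of 0.04 and 0.18 (Atg2b 85.7 and 94.1 CPM against 99.0 and 105 CPM), Wipi1 one of 0.03 and Vmp1, a scramblase of the endoplasmic reticulum, one of 0.18, none of them called. Vmp1 stood at 97.9 and 95.9 CPM against 113 and 107 CPM (adjusted p = 0.0626), and was the most abundant member of this step per kilobase of exon, at 25.1 CPM with DMSO.

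In conjugation 6 of 15 genes rose and 1 fell (40% and 6.67%, beside 21.2% and 7.19% of nuclear protein-coding genes). All 5 ATG8 substrates rose, while of 10 enzymes 1 rose and 1 fell (10% each). The enzyme that rose was Atg12, counted here although it is itself a ubiquitin-like protein. Gabarapl1, the most abundant ATG8 gene, stood at 160 and 156 CPM with DMSO, against 224 and 190 CPM with the activator (log2 fold change 0.38 ± 0.08 SE, limma adjusted p = 6.48e-05). Map1lc3b, which encodes the LC3B used as the standard mark of autophagosomes, stood at 66.8 and 69.8 CPM against 85.3 and 81.9 CPM (0.29 ± 0.08, adjusted p = 0.00378). Gabarapl2 stood at 26.7 and 28.7 CPM against 39.2 and 32.2 CPM (0.35 ± 0.10, adjusted p = 0.00443). Map1lc3a stood at 59.8 and 52.9 CPM against 72.7 and 60.5 CPM, with the lower activator library close to the higher DMSO library (0.23 ± 0.09, adjusted p = 0.0297). Gabarap stood at 78.9 and 77.0 CPM against 91.9 and 88.2 CPM (0.21 ± 0.08, adjusted p = 0.0377). In all 5 the groups were apart and activator replicate 1 was the higher of its pair. Summed over the family the level was 392 and 384 CPM with DMSO and 514 and 452 CPM with the activator, 1.24-fold higher.

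**Figure D3:**
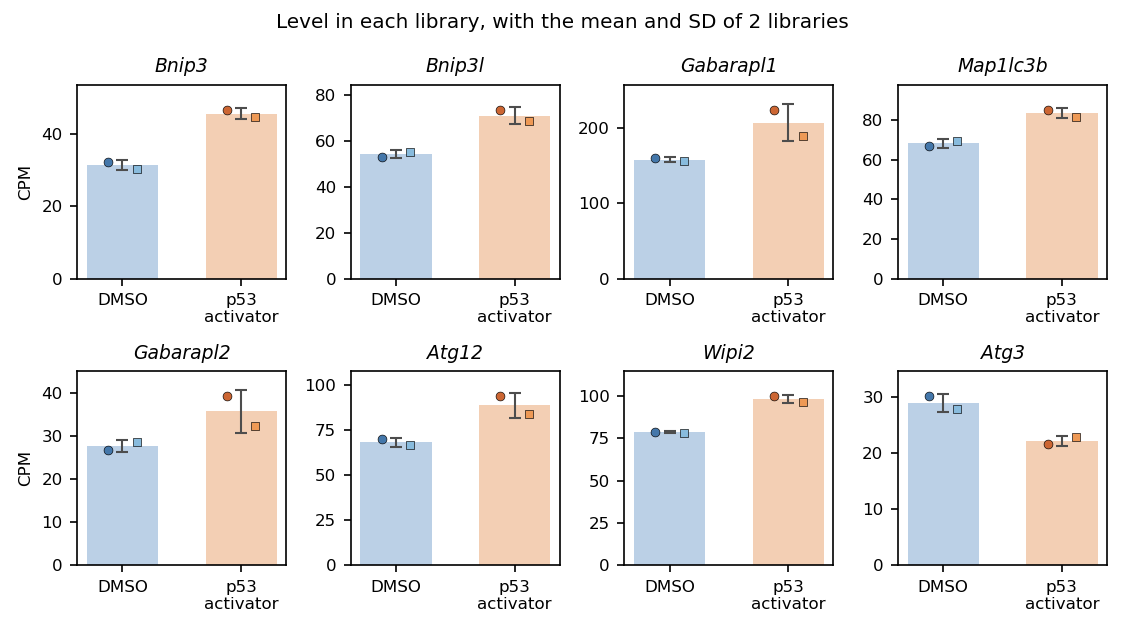
CPM (vertical axis, from 0) of 8 autophagy genes in DMSO and p53 activator libraries. Points are libraries (circle for replicate 1, square for replicate 2), bars the mean and error bars the SD of the 2 libraries. Both activator points lie above both DMSO points for 7 genes, and below them for Atg3.

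Per kilobase of exon the ATG8 genes with DMSO were ordered Gabarapl1 (78.5 CPM), Map1lc3a (47.7), Gabarap (42.3), Gabarapl2 (11.9) and Map1lc3b (9.08). The order was the same with the activator, with Gabarapl1 at 103 CPM per kilobase. The call of Gabarapl1 held without any 1 library. That of Map1lc3b was lost without DMSO replicate 1 (log2 fold change 0.26), that of Gabarapl2 without DMSO replicate 1 (0.30) or activator replicate 1 (0.21), and that of Map1lc3a without DMSO replicate 2 (0.15) or activator replicate 1 (0.10). The call of Gabarap was lost in turn without each DMSO library and each activator library (0.22, 0.19, 0.18 and 0.24). On the protein-coding scale the 5 log2 fold changes ranged from 0.06 for Gabarap to 0.23 for Gabarapl1, and Gabarapl1 alone was called (adjusted p = 0.0143). An opposite-strand transcript, 1700101I11Rik, shares 28.3% of the exonic bases of Gabarapl1 and stood at 0.601 to 1.84 CPM.

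Among the enzymes, Atg3 was the only one of the 44 genes called lower. ATG3 is the E2-like enzyme that passes ATG8 proteins to the lipid phosphatidylethanolamine. It stood at 30.2 and 27.9 CPM with DMSO, against 21.6 and 22.9 CPM with the activator (log2 fold change -0.37 ± 0.11 SE, limma adjusted p = 0.00430). Both activator libraries lay below both DMSO libraries, and the call did not hold without DMSO replicate 1 (-0.31). Scaled to the protein-coding total Atg3 fell by 0.52 on the log2 scale (adjusted p = 0.000149). A ratio within a library does not depend on the scaling, and this one was chosen after its values were seen: ATG8 reads per Atg3 read were 13 and 13.8 with DMSO and 23.8 and 19.8 with the activator.

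Atg12, the ubiquitin-like partner of ATG5, stood at 69.7 and 66.3 CPM with DMSO, against 93.5 and 83.5 CPM with the activator (log2 fold change 0.37 ± 0.08 SE, limma adjusted p = 0.000197), and stayed called without any 1 library. Atg5 stood at 19.1 and 18.2 CPM against 24.0 and 21.4 CPM, a log2 fold change of 0.27 that did not pass the test (adjusted p = 0.0575). Atg7, the E1-like enzyme that activates both ATG12 and the ATG8 proteins, stood at 13.99 and 12.3 CPM against 14.4 and 13.4 CPM, and Atg10, the E2-like enzyme of ATG12, at 4.59 and 4.21 CPM against 4.35 and 5.25 CPM. In both the groups overlapped, with log2 fold changes of 0.08 and 0.10 that became -0.06 and -0.03 on the protein-coding scale (adjusted p = 0.803 and 0.948). Atg16l1, which positions the ligase on the membrane, had a log2 fold change of 0.04. None of the 4 ATG4 proteases, which trim ATG8 proteins and release them again, was called. Atg4a stood at 3.43 and 4.21 CPM against 3.57 and 2.88 CPM (-0.19, adjusted p = 0.466), Atg4c at 28.0 and 25.4 CPM against 28.9 and 24.1 CPM (-0.02, adjusted p = 0.927), Atg4b had a log2 fold change of 0.22 and Atg4d one of -0.04. The sign of the Atg4a value turned under quantile normalization (0.04).

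Of the 8 receptor genes 4 rose and 0 fell (50% higher, beside 21.2% of nuclear protein-coding genes). Of the 4 that rose, 3 were among the 4 genes of mitophagy, the removal of mitochondria. Bnip3 stood at 32.4 and 30.4 CPM with DMSO, against 46.7 and 44.6 CPM with the activator (log2 fold change 0.53 ± 0.09 SE, limma adjusted p = 4.66e-06). Bnip3l, which encodes the related receptor NIX, stood at 53 and 55.3 CPM against 73.5 and 68.5 CPM (0.38 ± 0.08, adjusted p = 0.000195). Both genes stayed called without any 1 library and on the protein-coding scale (0.38 and 0.24, adjusted p = 0.00157 and 0.0316). Fundc1, another receptor of this membrane, stood at 19.5 and 18.8 CPM against 23.1 and 21.1 CPM and did not pass the test (0.20, adjusted p = 0.176). Pink1, the kinase that marks depolarised mitochondria, stood at 69.4 and 75.0 CPM against 93.3 and 81.0 CPM (0.27 ± 0.08, adjusted p = 0.00856), a call lost without DMSO replicate 1 (0.21) or activator replicate 1 (0.16). Bnip3l has a processed pseudogene, Bnip3l-ps, listed at 24.3 and 22.1 CPM against 27.9 and 30.6 CPM, and how reads were divided between them is not given. Of the exonic bases of Bnip3, 22.3% are shared with an antisense gene that was not listed among the measured genes.

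Of the 4 cargo receptors that bind ubiquitin 1 rose (25%), near the 21.2% of nuclear protein-coding genes. Sqstm1, which encodes p62, stood at 165 and 175 CPM with DMSO, against 195 and 193 CPM with the activator (log2 fold change 0.19 ± 0.08 SE, limma adjusted p = 0.0415). Its groups were apart, and 17.3% of its exonic bases are shared with Mrnip (5.005 to 6.71 CPM). The call was lost in turn without each DMSO library and each activator library (0.15, 0.23, 0.19 and 0.20). It was the most abundant receptor per kilobase of exon, at 50.6 CPM with DMSO. Nbr1, Optn and Tax1bp1 had log2 fold changes of 0.10, 0.13 and 0.06, none called, and Tax1bp1 stood at 142 and 143 CPM against 154 and 144 CPM.

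Of the 4 genes of fusion with the lysosome 1 rose and 0 fell (25% higher), near the 21.2% of nuclear protein-coding genes. Tecpr1, which tethers autophagosomes to lysosomes, stood at 40.0 and 40.7 CPM with DMSO, against 46.8 and 50.3 CPM with the activator (log2 fold change 0.26 ± 0.09 SE, limma adjusted p = 0.0192). Its call was lost without DMSO replicate 1 (0.25), DMSO replicate 2 (0.27) or activator replicate 2 (0.21). The tether gene Epg5, the most abundant of the step per kilobase of exon, stood at 66.9 and 73.1 CPM against 80.5 and 75.6 CPM (0.16, adjusted p = 0.139). Stx17, the SNARE of the autophagosome, stood at 36.0 and 35.9 CPM against 44.1 and 37.0 CPM (0.17, adjusted p = 0.177). Plekhm1, an adaptor between Rab7, ATG8 proteins and the tethering complex, had overlapping groups and a log2 fold change of -0.01.

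**Figure D4:**
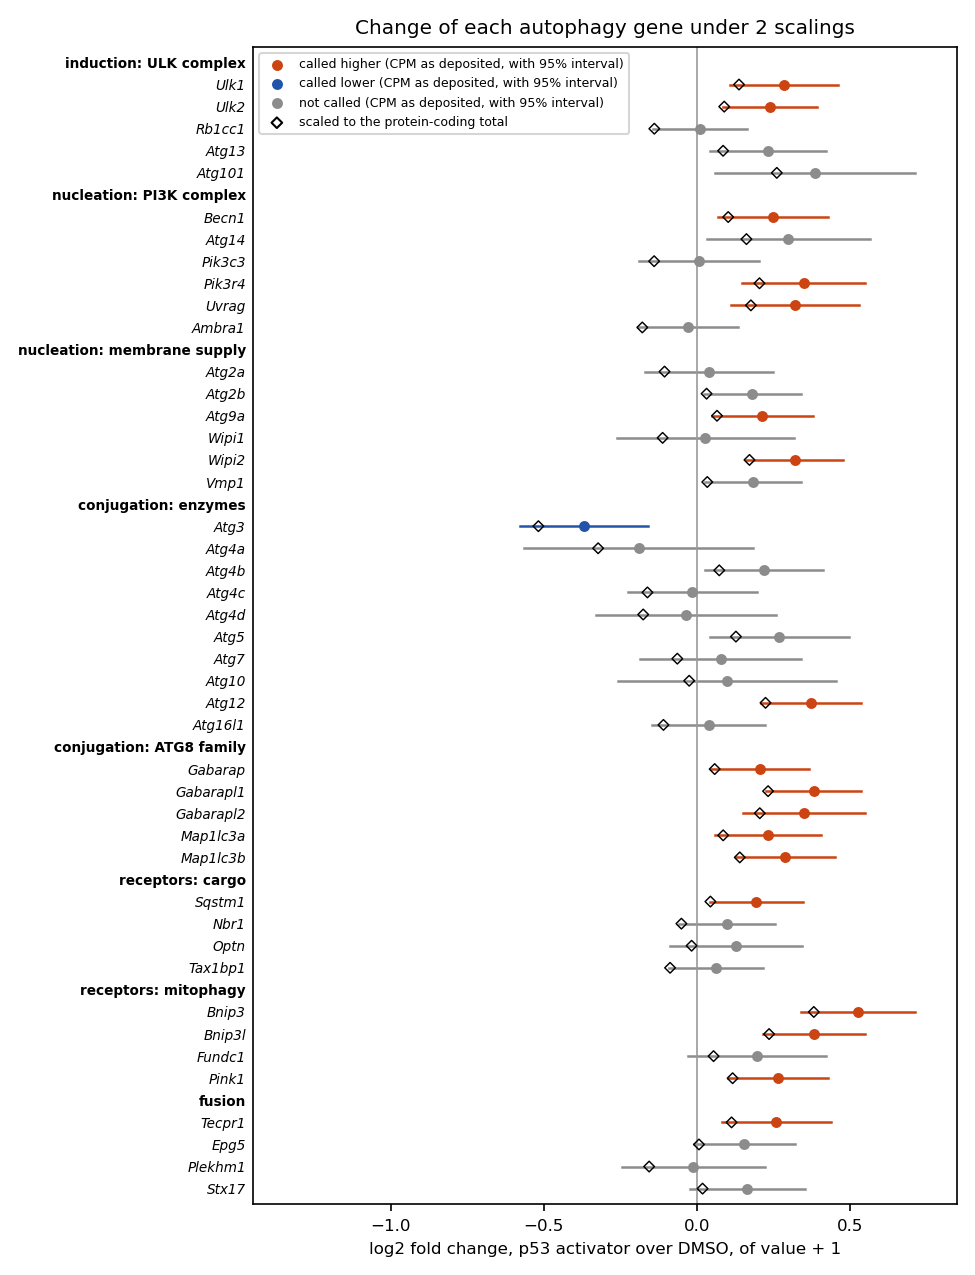
Log2 fold change of CPM + 1, p53 activator over DMSO, with limma's 95% interval (filled points and lines) for the 44 autophagy genes by step, and the same value on the protein-coding scale (open diamonds). The diamonds lie to the left of the points throughout, and 4 genes called higher and Atg3 stay called there.

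Each gene's share of the reads of its own step does not depend on the scaling either. Of the 44 shares 10 were higher in both activator libraries, 12 were lower and 22 overlapped. In the receptor step Bnip3 went from 5.29% and 4.81% of the reads to 6.46% and 6.37%, and Bnip3l from 8.67% and 8.76% to 10.2% and 9.78%. In the conjugation step Atg3 went from 4.69% and 4.46% to 2.71% and 3.23%, while Gabarapl1 went from 24.9% and 25.0% to 28.1% and 26.8%. In the induction step Rb1cc1 went from 41.7% and 38.7% to 37.2% and 35.3%. The shares of a step add up to a fixed total, so a rise in some genes lowers the shares of others. No such count was made over all genes, and these shares are given without a test.

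Of the 9 members known as p53 targets from other cells (Ulk1, Ulk2, Uvrag, Atg2b, Atg4a, Atg4c, Atg7, Atg10 and Vmp1), 3 rose and 0 fell, with a median log2 fold change of 0.18. Their share called higher, 33.3%, stood beside 21.2% of nuclear protein-coding genes. The 3 were Ulk1, Ulk2 and Uvrag. On the protein-coding scale 0 of the 9 were called, beside 4.37% of protein-coding genes called higher and 13.1% lower. Of other genes that link p53 to autophagy, 4 of 8 tested rose (50%, beside 21.2% of nuclear protein-coding genes). Ddit4, an inhibitor of mTORC1 signalling, rose from 21.1 and 19.0 CPM to 27.6 and 31.2 CPM (log2 fold change 0.53 ± 0.11 SE, limma adjusted p = 6.44e-05). Tigar, Sesn2 and Sesn3 rose by 0.37, 0.28 and 0.24. Dram2, a lysosomal membrane protein and the most abundant of them without a call, had a log2 fold change of 0.00. Sesn1, Tpp1 and Bbc3 were not called either (0.05, 0.24 and 0.30). Dram1, the damage-regulated autophagy modulator, lay under the filter. On the protein-coding scale Ddit4 stayed called (0.39, limma adjusted p = 0.00763), but Tigar, Sesn2 and Sesn3 did not (0.23, 0.14 and 0.09).

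**Figure D5:**
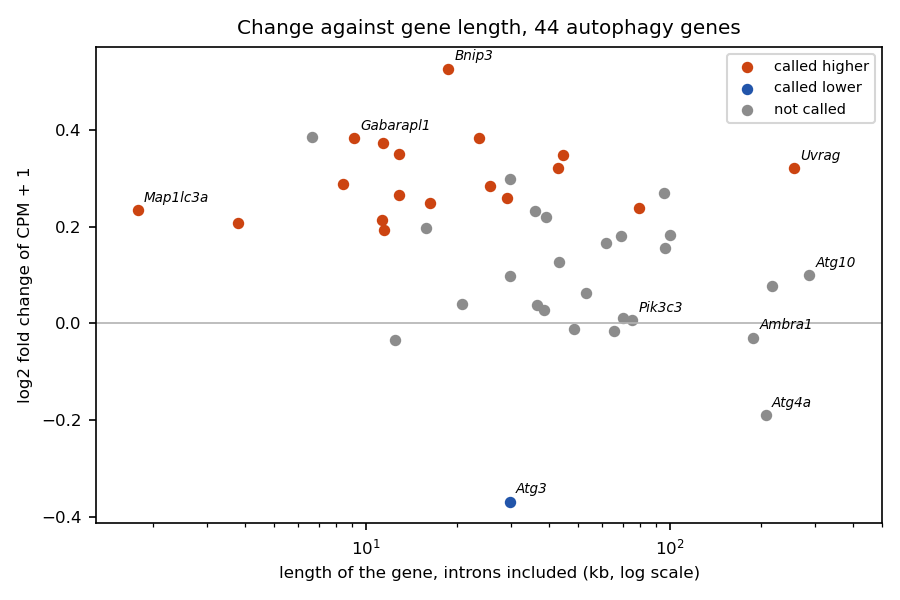
Log2 fold change of CPM + 1 (vertical axis) against the length of the gene with introns (horizontal axis, kilobases, log scale) for the 44 autophagy genes. Most of the 18 genes called higher lie at the short end, and Uvrag, at 256100 bases, is the longest of them.

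Gene length and level, which the rule of choice did not use, differed between genes called higher and uncalled genes. The 18 genes called higher spanned a median of 14620 bases with introns and the 25 without a call a median of 53050 bases. Of the 22 genes shorter than the median of the 44, 14 rose, and of the 22 longer ones 4 rose (Ulk2, Pik3r4, Uvrag and Wipi2). The same length limit did not divide nuclear protein-coding genes as a whole, of which 21.1% below it and 21.4% above it were called higher. Spearman's rho between length and log2 fold change was -0.43 across the 44 genes and -0.09 across 12763 nuclear protein-coding genes. Between the number of exon blocks and log2 fold change it was -0.43 and -0.16. The genes called higher also had a higher level, with a median of 62.2 CPM against 26.7 CPM for those without a call. This was not particular to the 44 genes: rho between mean CPM and log2 fold change was 0.22 across them and 0.37 across nuclear protein-coding genes. The SE from limma was also smaller at higher levels (0.18 for Atg10, 0.08 for Ulk2), so a call depended in part on level. These values describe genes of the same 4 libraries, which are not independent replicates.

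Genes that control the machinery were described from lists chosen as the members were. Of 28 genes of mTORC1 and AMPK signalling 12 rose and 0 fell (42.9% higher, beside 21.2% of nuclear protein-coding genes). On the protein-coding scale 1 of the 28 rose, Rraga, beside 4.37% of protein-coding genes. On deposited CPM the smallest p-values were those of Rag GTPases, which bring mTORC1 to the lysosome. Rraga stood at 57.3 and 62.0 CPM with DMSO, against 80.5 and 81.3 CPM with the activator (log2 fold change 0.44 ± 0.08 SE, limma adjusted p = 1.72e-05). Rragb rose by 0.36, while Fnip1, abundant and without a call, had a value of 0.06. The list held genes that restrain autophagy and genes that promote it: Mtor rose by 0.22 and its inhibitor Deptor by 0.45, and the AMPK catalytic subunits Prkaa1 and Prkaa2 by 0.25 each. None of these stayed called on the protein-coding scale (0.07, 0.31, 0.11 and 0.10 in that order). Of 10 transcription factors of autophagy genes 5 rose and 0 fell (50% higher), with a list median of 0.09 like that of nuclear protein-coding genes. Among those that rose were Atf4 (0.35), Foxo3 (0.30) and Tfe3 (0.36, from 16.0 and 15.2 CPM to 19.0 and 21.5 CPM). The other 5 had negative values without a call, among them the repressor Zkscan3 (-0.11), Mitf (-0.38) and Tfeb (-0.28), which stood at 2.13 and 3.27 CPM against 2.67 and 1.47 CPM. On the protein-coding scale 0 of the 10 rose and 2 fell, Zkscan3 (-0.26, adjusted p = 0.0488) and Mitf (-0.52, adjusted p = 0.0357). Of all protein-coding genes 4.37% were called higher and 13.1% lower on that scale.

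Of 14 other core genes 4 rose and 1 fell (28.6% and 7.14%), shares near the 21.2% and 7.19% of nuclear protein-coding genes. Rab1a rose by 0.43 and Wdr45b, a relative of the WIPI genes, by 0.46, Sh3glb1 was abundant without a call (0.15), and Atg16l2 fell from 16.7 and 14.5 CPM to 11.9 and 9.99 CPM (log2 fold change -0.47). Of 17 genes of transport and fusion 10 rose and 0 fell (58.8% higher). On the protein-coding scale 3 of them rose, beside 4.37% of protein-coding genes. Among the 3 were Arl8b, which moves lysosomes along axons, and Rab7, the late endosome GTPase (0.42 and 0.40 on deposited CPM). The motor adaptor Mapk8ip1 had a value of 0.07 without a call. Of 15 other receptors and mitophagy genes 4 rose (26.7%), near the 21.2% of nuclear protein-coding genes. Tollip rose by 0.42 and Wdfy3, a large scaffold, was not called (0.17).

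Over all lists 39 of 92 tested genes rose and 2 fell (42.4% and 2.17%, beside 21.2% and 7.19% of nuclear protein-coding genes). On the protein-coding scale 9 rose and 5 fell, beside 4.37% and 13.1%. Without DMSO replicate 1 or activator replicate 1 the rises over all lists numbered 18 and 24.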

How the data were processed

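The 4 libraries were made from total RNA (TRIzol extraction, then removal of ribosomal RNA), per the labels' protocols. TopHat2, Cufflinks 2.0.0 and build mm9 are named without roles, per the submitters' processing notes. For the counting program, its strand setting and the annotation, the details were not given in the sources used here. The authors deposited 1 table of CPM, a unit read from the values: 100% of values were whole multiples of 1 step per library (within 0.01 reads), which gave back whole reads. 1 read was worth 0.0525 to 0.0686 CPM.

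The filter of 1 CPM in 2 or more libraries left 16654 genes and removed 2200. The difference between groups was fitted on log2(CPM + 1) by limma 3.58.1 (R 4.3.3), with its mean-variance trend. The pseudocount understates fold changes of low genes. Two-sided p-values were adjusted by Benjamini-Hochberg over all genes tested. There were 2 residual and 98 prior degrees of freedom, so each gene's SE rested mostly on the spread of other genes at its level. edgeR 4.0.16 and DESeq2 1.42.0 were run on the recovered reads as alternatives. Gene classes and exon lengths were taken from GENCODE vM21 (15861 of 18854 symbols found). Its build differs from the one named, so its coordinates are not given, and promoter windows carry RefSeq's build.

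On simulated data (10 runs, 200 genes changed, a median of 16556 genes tested) this comparison's fit found 21.2% of genes changed 1.25-fold and 68.4% of those changed 1.5-fold. False calls made up 3.34% of the calls in those runs. The 4 libraries themselves gave 2811 genes called higher and 2721 lower, many more than 200. Both rates were not tested with that many genes changed and the makeup of the libraries moving. Replicates of a group differed by more than sampling noise (chi-square per degree of freedom 4.64 and 5.34).

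The members and lists were chosen with earlier results of these data known. Values in all libraries were given for called members (the 4 with the smallest p in a step with more), the most abundant of each step per kilobase, reported p53 targets, the ATG8 family, Sqstm1, Bnip3 and Bnip3l. In each other list the 2 called genes with the smallest p and the most abundant without a call were named. Further genes, among them Rb1cc1, Atg16l2, Tfe3, Sesn1, Sesn2, Sesn3, Tpp1, Bbc3, Mtor, Deptor, Tfeb, Mitf, Prkaa1 and Prkaa2, were named after their values were seen. Alternatives were other pseudocounts, filters, scalings, variance models and tools, a replicate block and leaving out each library. The result of 1 gene of these lists is not reported here.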

Additional observations from a re-analysis of the deposited data

How the results depend on the processing

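The 19 called members kept their direction under all 16 alternatives, but Bnip3 was the only one called in each. Alternatives that changed only the filter, limma's variance model or the block left the fold changes as they were, so direction could not turn there. The counts moved with the scaling and the test. For autophagy genes called higher (18), all genes called higher (2811) and genes of the related lists called higher (39) the counts were 9, 1632 and 23 with quantile normalization, 4, 570 and 9 on the protein-coding total, 3, 642 and 10 after cyclic loess of these genes, 1, 302 and 9 when the spread did not follow expression, and 5, 1156 and 17 with DESeq2. edgeR with TMM gave 10 and 1786. For all genes called lower (2721) the counts were 1776 with a minimum of 5 CPM, 1707 on the protein-coding total, 1250 after cyclic loess and 1585 with DESeq2, the first 3 of which test fewer genes. Genes of the related lists called lower (2) were 5 on the protein-coding total and 1 without the trend, and autophagy genes called lower (1) were 0 without it. The cause of these moves was not tested.

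Leaving out each library in turn gave 7 to 14 autophagy genes higher and 0 to 1 lower, 1138 to 2122 genes higher and 1445 to 2468 lower among all genes, and 18 to 29 genes of the related lists higher with 1 to 2 lower. Wipi2, Atg12, Gabarapl1, Bnip3 and Bnip3l stayed called in each. Of the 25 uncalled members 15 changed sign in at least 1 alternative. On the protein-coding total these were Rb1cc1 (-0.139), Pik3c3 (-0.14), Atg2a (-0.106), Wipi1 (-0.112), Atg7 (-0.0639), Atg10 (-0.0251), Atg16l1 (-0.109), Nbr1 (-0.0506), Optn (-0.0172) and Tax1bp1 (-0.0875). After cyclic loess they were Rb1cc1 (-0.169), Pik3c3 (-0.0969), Atg2a (-0.0544), Wipi1 (-0.00142), Atg16l1 (-0.0797), Nbr1 (-0.0656) and Tax1bp1 (-0.113). After quantile normalization they were Rb1cc1 (-0.141), Pik3c3 (-0.0367), Atg4a (0.0355), Atg4d (0.069), Atg16l1 (-0.0369), Nbr1 (-0.0158), Tax1bp1 (-0.0699) and Plekhm1 (0.0016). edgeR turned Rb1cc1 (-0.0327), Pik3c3 (-0.0367), Atg2a (-0.00432), Wipi1 (-0.0073) and Atg16l1 (-0.00336), and DESeq2 turned Rb1cc1 (-0.0127) and Pik3c3 (-0.0166). Leaving out 1 library gave values on both sides of 0 for Rb1cc1 (-0.0528 to 0.0746), Pik3c3 (-0.0153 to 0.0297), Ambra1 (-0.107 to 0.0481), Atg2a (-0.0303 to 0.111), Wipi1 (-0.0952 to 0.15), Atg4c (-0.141 to 0.111), Atg4d (-0.184 to 0.113), Atg7 (-0.00927 to 0.164), Atg10 (-0.012 to 0.211), Atg16l1 (-0.045 to 0.122) and Plekhm1 (-0.0889 to 0.0663). Of 26 named genes of the related lists 6 changed sign in an alternative (Dram2, Fnip1, Mapk8ip1, Sh3glb1, Tfeb and Wdfy3), none of them called. Tfe3, Sesn1, Tpp1 and Bbc3 were not among the 26.

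With the replicate number as a block 25 autophagy genes were called higher and 1 lower, and 3705 and 3132 genes in all. The groups share only a number, and deviations of same-numbered libraries correlated at 0.12 across genes. With 2 libraries a group, small changes can be missed: limma's 95% interval of an uncalled member reached up to 0.14 on the log2 scale for Ambra1 and up to 0.71 for Atg101.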
